A study of Mus musculus with 6 samples.

Results

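Aminoacyl-tRNA synthetases, the enzymes that attach each amino acid to its transfer RNA (tRNA), were measured in mouse pancreatic acinar cells, which make and release the digestive enzymes. Genes were taken by their symbols, and 37 of the 55367 symbols counted matched. One of them, Lars2, which charges mitochondrial tRNA with leucine, is known to collect reads of ribosomal RNA and was left out, since its 112006 to 509528 counts per library dwarfed the 1324 to 2304 counts of all other synthetase genes together. The remaining 36 genes comprised 20 that act in the cytosol and 16 that act in mitochondria only. The data are 6 RNA-seq libraries of 1 group. Each was made from 300 sorted GFP-positive acinar cells, from mice that had no treatment. Their genotype was Pdx1-Cre; Klf5-mCherry-CreERT2, in which the Pdx1 promoter, active in the pancreatic lineage, drives Cre, and Klf5 carries mCherry and a tamoxifen-dependent Cre. The labels name no GFP reporter and no age, there was no other genotype or treatment to compare with, and it is not stated whether each library came from its own animal. A number in the names of the libraries separates replicates 1 to 3 from replicates 4 to 6. These are called set A and set B, and the labels do not explain the number.

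Both compartments need a full set of charged tRNAs, because mitochondria translate their own few messages. Most amino acids have a separate nuclear gene for each compartment, while Gars (glycine) and Kars (lysine) serve both, and Eprs joins the glutamate and proline enzymes in 1 protein. Mitochondria have no glutaminyl enzyme of their own and convert glutamate on the tRNA, charged by Ears2, to glutamine. Several cytosolic enzymes are held in a multisynthetase complex. Many cytosolic synthetase genes are known targets of ATF4, the transcription factor of the integrated stress response, which binds amino acid response elements in promoters.

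The letters TGATGNAA, a form of the amino acid response element, were searched on both strands in RefSeq promoters from 250 bases before to 50 bases after the start site (build mm10). On the other strand they read TTNCATCA. Of the 36 synthetase genes, 26 matched a promoter. The cytosolic genes without an entry, and so not searched, were Cars, Hars, Lars, Nars, Rars, Vars and Wars. The letters were in 5 of 13 matched cytosolic genes and 0 of 13 matched mitochondrial genes, against 3.97% of all 32851 promoters. That share is over promoters, which belonged to 27025 symbols, and not over genes. For Dars, Kars, Sars and Sars2, counted as without the letters, the bases just after the start site matched no transcript of the gene in the GENCODE annotation. The window of Tars2, chr3:95754928-95755227 on the minus strand, lies inside the gene, which ends at 95760206. For these genes the absence holds for the window searched only. All 5 genes with the letters were on the list of 13 cytosolic genes taken as ATF4 targets from general knowledge, of which 8 had a promoter entry. The sites are shown because they are the sequence feature by which these genes differ from the other matched members. Each is printed as 30 bases on the strand of the gene, with the matched letters in capitals, and Asns, the asparagine synthetase gene and a well known ATF4 target, is given beside them. The Gars site lies at chr6:55037960-55037989 on the plus strand, that of Yars at chr4:129189895-129189924 on the plus strand, that of Iars at chr13:49682126-49682155 on the plus strand, and that of Tars at chr15:11399655-11399684 on the minus strand. The Aars site shown lies at chr8:111033840-111033869 on the plus strand, and the Asns site lies at chr6:7693214-7693243 on the minus strand.
Gars: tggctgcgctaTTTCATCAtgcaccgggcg
Yars: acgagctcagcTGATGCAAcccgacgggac
Iars: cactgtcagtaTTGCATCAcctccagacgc
Tars: caggagtcccgTTGCATCAgctggttagct
Aars: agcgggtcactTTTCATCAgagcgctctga
Asns: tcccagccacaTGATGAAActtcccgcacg
The sites shown for Gars, Iars, Tars and Aars carry the letters of the other strand, and not every site found is shown. A match describes these letters only and is not a bound site. The matched cytosolic genes with the letters had a median level of 3.33 TPM, and the 8 without had 3.73 TPM, and the ranges of the groups overlapped. Levels are in TPM, here counts per kb of exon scaled to the same total over all genes in each library. Of the other genes of the ATF4 pathway, Chac1 and Trib3 also held the letters. For Trib3 too, the bases just after the start site matched no GENCODE transcript of the gene.

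Cytosolic synthetase genes stood well above the mitochondrial ones in every library. The median cytosolic gene was at 3.45, 3.29, 3.75, 3.49, 3.49 and 2.98 TPM in replicates 1 to 6, and the median mitochondrial gene at 0.62, 0.50, 0.45, 0.81, 1.57 and 0.69 TPM. The groups of medians did not overlap, and the mitochondrial one was highest in replicate 5. The difference of the medians of log2(TPM + 1) was 1.34 ± 0.31 (SD, n = 6), from 0.81 in replicate 5 to 1.71 in replicate 3. Summed over genes, the cytosolic enzymes reached 95.4 ± 6.32 TPM and the mitochondrial ones 19.96 ± 11.5 TPM (SD, n = 6). On average over libraries, all 20 cytosolic genes and 5 of 16 mitochondrial genes (4 without replicate 5) reached 1 TPM, against 32.2% of 21949 nuclear protein-coding genes. The difference between the compartments was not tested, since the members were chosen with it in view, and it was 0.67 with the length of the whole gene span in place of the exons.

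**Figure D1:**
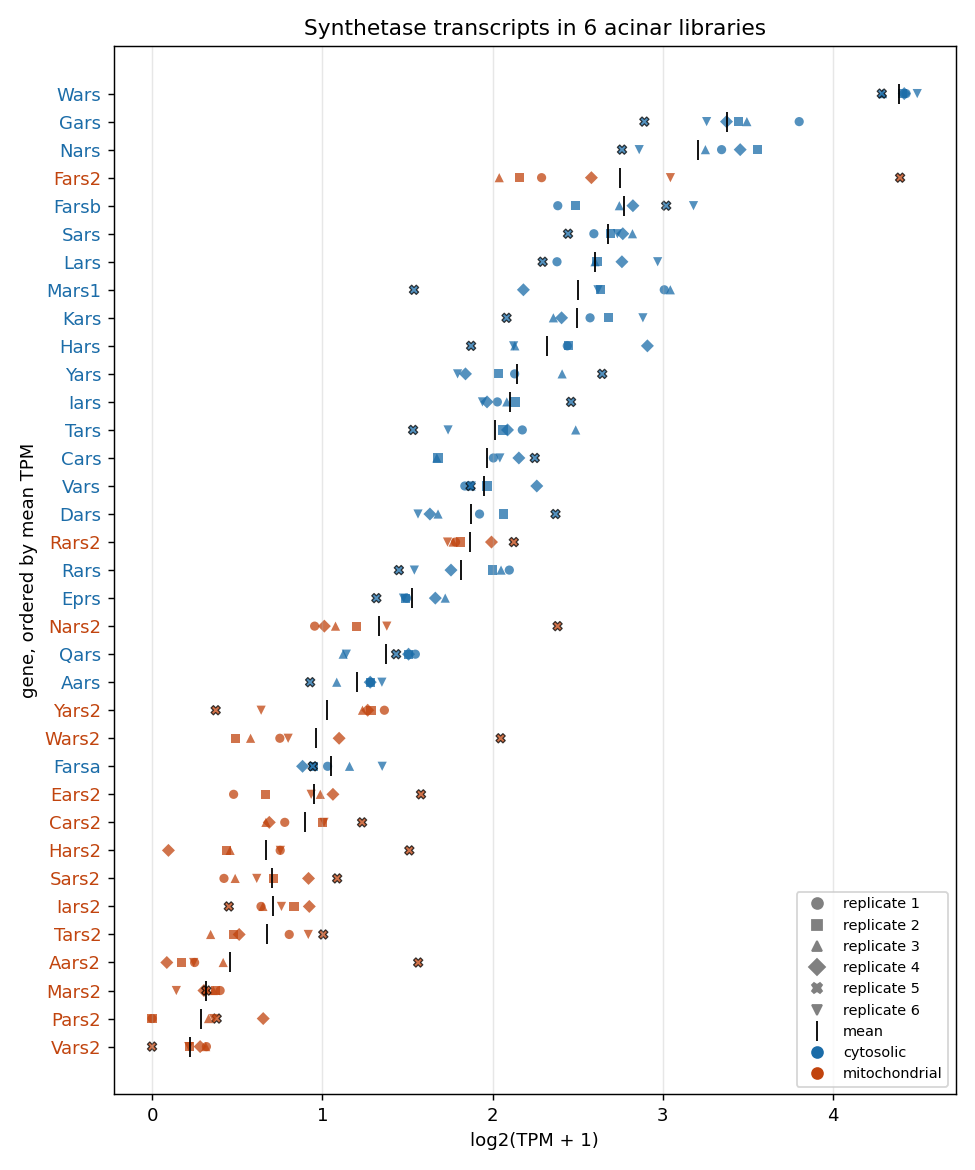
Levels of the aminoacyl-tRNA synthetase genes reported here in the 6 acinar libraries, as log2(TPM + 1), with cytosolic genes in blue and mitochondrial genes in orange. Points are libraries, ticks are means, and crosses mark replicate 5. Wars lies highest, and most mitochondrial genes lie below most cytosolic ones. Replicate 5 is high in several mitochondrial genes. With the exon lengths used here, Fars2 and Rars2 lie among the cytosolic genes also without it, at 4.54 and 2.53 TPM. With span lengths and all libraries they were at 0.09 and 0.24 TPM, below the lowest cytosolic gene, Farsb, at 0.32 TPM.

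Counting error and background limit the low genes. Libraries held 4670819 to 7072270 counts, of which 38.1% to 60.9% were ribosomal RNA, and the synthetases took 0.0253% to 0.0327%. A count of 0 allows up to 3 counts, or 0.424 to 0.642 CPM (counts relative to the total of that library), and this floor covers counting error only. Counts cover whole gene spans with introns, so a background was estimated from olfactory and vomeronasal receptor genes, which should be silent here. It was 25.7 to 108 counts per Mb in 5 libraries and 323 in replicate 5, where 11357 protein-coding genes reached 1 TPM against 5006 to 6987 elsewhere. All 8 acinar marker genes were at 1 TPM or more, with sums of 270132 to 308622 TPM in set A and 105493 to 166683 TPM in set B. Of the markers of other cells, 6 of 7 ductal genes were at 1 TPM or more with sums of 51.0 to 173 TPM, and 4 of 7 endocrine genes with sums of 9.09 to 39.4 TPM in set A and 38.0 to 2224 TPM in set B. Endothelial, fibroblast and immune sums were at most 13.5 TPM, and no listed marker was at 0 in all libraries. The part of these cells and of replicate 5 in the levels was not tested beyond the values without that library, and in bulk samples fewer cells of a type and less RNA per cell cannot be told apart.

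Expected background made up 4.14% of the cytosolic and 31.7% of the mitochondrial synthetase counts, or 1.99% and 18.6% without replicate 5. It was 20% or more in 7 of 16 mitochondrial genes and in 0 of 20 cytosolic genes, or in 3 and 0 without replicate 5. A count above 3 times background in each of the 6 libraries was found for 11 of 20 cytosolic and 0 of 16 mitochondrial genes, against 12.5% of nuclear protein-coding genes. Without replicate 5 these were 20 of 20 and 10 of 16, against 32.0%. The median spans were alike, 25323.5 bp for cytosolic and 25141 bp for mitochondrial genes, but the summed spans were 642 kb over 20 cytosolic and 1097 kb over 16 mitochondrial genes, of which Fars2 took 609 kb. After the expected background was subtracted the median difference was 1.43.

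**Figure D2:**
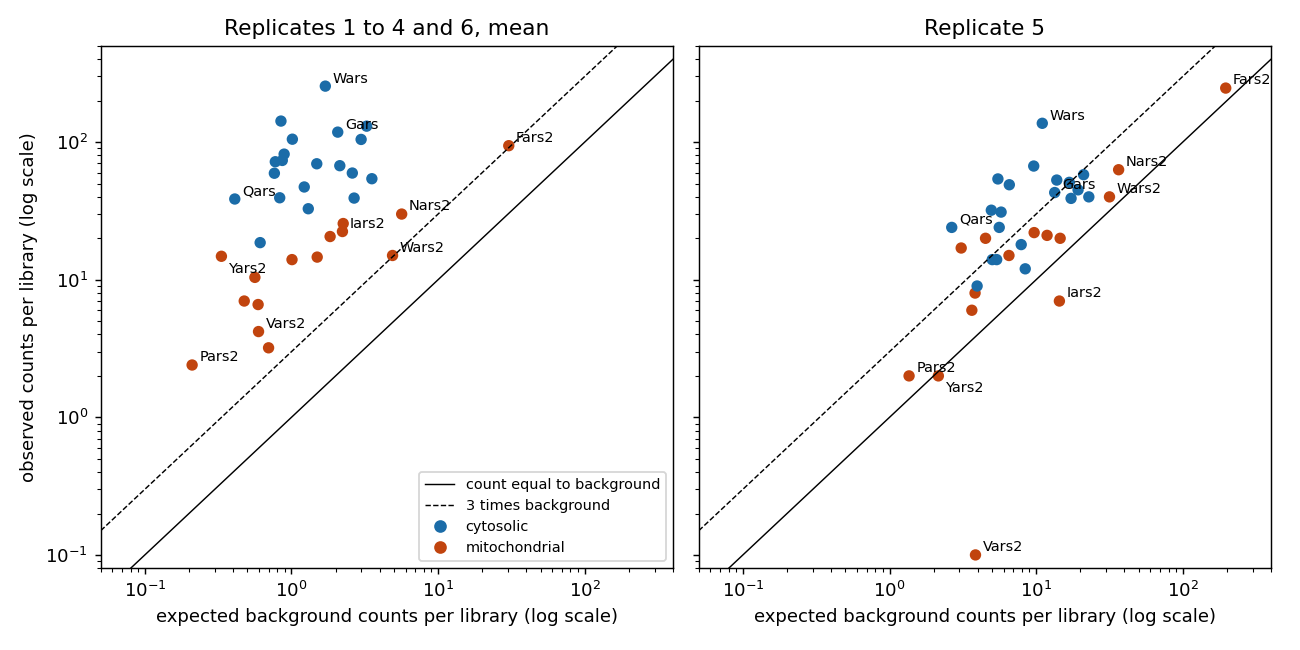
Observed counts of the synthetase genes reported here against the background expected from its gene span, on log axes, for the mean of replicates 1 to 4 and 6 and for replicate 5. The solid line is equality and the dashed line 3 times background, and a count of 0 is drawn at 0.1. In replicate 5 most mitochondrial genes lie close to the lines, and so do several cytosolic ones, such as Rars and Farsb.

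Wars, which charges tRNA with tryptophan, was the most abundant synthetase gene. It was at 20.5, 20.2, 18.6, 20.4, 18.5 and 21.5 TPM in replicates 1 to 6, a mean of 19.97 ± 1.19 TPM (SD, n = 6). On this scale its libraries lay close together, replicate 5 included, with a coefficient of variation of 5.97%. The spread was wider with no length scaling, at 37.3 ± 5.33 CPM, and without ribosomal RNA, Lars2, Gphn and satellite genes, at 37.1 ± 10.05 TPM (SD, n = 6), and TMM-scaled CPM ran from 48.3 in replicate 1 to 22.7 in replicate 5. Wars supplied 21.0% ± 1.30 of the cytosolic synthetase TPM (SD, n = 6) and lay at the 98.1 to 98.5 percentile of nuclear protein-coding genes. The gene lies at chr12:108860030-108894174 on the minus strand, and expected background was 1.38% of its 1413 counts.

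Gars and Nars, the glycine and asparagine enzymes, followed. Gars was at 12.9, 9.88, 10.3, 9.37, 6.42 and 8.56 TPM, with a mean of 9.57 ± 2.14 TPM (SD, n = 6). Nars was at 9.16, 10.8, 8.52, 9.96, 5.78 and 6.27 TPM, with a mean of 8.41 ± 2.0 TPM (SD, n = 6). Both were lowest in replicate 5, and they differed from each other by less than their spread. Wars exceeded both in every library.

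Farsb followed among the cytosolic genes, at 5.97 ± 1.46 TPM (SD, n = 6), and the other cytosolic genes came below it. Sars, the serine enzyme, which also charges the selenocysteine tRNA, had 5.41 ± 0.59 TPM, and Lars, the leucine enzyme, 5.15 ± 1.07 TPM (SD, n = 6). Mars1 (methionine) ranged from 1.91 to 7.25 TPM around a median of 5.18 TPM, with replicate 5 lowest. Kars had 4.73 ± 1.10 TPM and Hars (histidine) 4.13 ± 1.35 TPM (SD, n = 6). Yars (tyrosine), Iars (isoleucine), Tars (threonine), Cars (cysteine), Vars (valine), Dars (aspartate) and Rars (arginine) had means of 3.52 down to 2.57 TPM. At the foot of the cytosolic genes were Eprs at 1.89 ± 0.29 TPM, Qars (glutamine) at 1.61 ± 0.34 TPM, Aars (alanine) at 1.31 ± 0.25 TPM and Farsa at 1.09 ± 0.26 TPM (SD, n = 6).

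The order depends on the length used. With the length of the transcript that has the longest coding sequence, Wars was still first at 33.3 TPM, Sars second at 13.1 TPM and Nars and Gars at 11.8 and 11.1 TPM. With span lengths Nars led, at 3.29 TPM, and Wars had 3.002 TPM. Between the exon-based lengths Eprs moved most, from rank 19 to rank 9, because its joined exons measure 18102 bp and that transcript 4906 bp, and its level was then 6.16 TPM. Across libraries the order of the 36 genes was similar, with a median Spearman correlation of 0.94 over 15 library pairs and a lowest of 0.71, or 0.92 without replicate 5. The libraries share their preparation and gene lengths, so this describes repeatability only.

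The phenylalanine enzyme is built of the products of Farsa and Farsb, which measured unequally. Farsb was at 4.22, 4.61, 5.70, 6.08, 7.11 and 8.07 TPM, and Farsa at 1.04, 0.93, 1.24, 0.85, 0.92 and 1.55 TPM in replicates 1 to 6. Farsb was above Farsa in 6 of 6 libraries, by 1.72 ± 0.27 on the log2(TPM + 1) scale (SD, n = 6). Farsb spans 70923 bp and Farsa 12269 bp, and the difference was 1.24 with the longest coding transcript, 1.35 with no length scaling and 1.57 after background was subtracted. Only with span lengths, among the length settings tried, did it turn, to -0.27.

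Members of the multisynthetase complex, Eprs, Iars, Lars, Mars1, Qars, Rars, Kars and Dars, were not above the other cytosolic enzymes. Their median log2(TPM + 1) was 1.94 ± 0.15, against 2.32 ± 0.15 for the 12 cytosolic genes outside it (SD, n = 6). The scaffold genes Aimp1 and Aimp2 had 1.90 ± 0.51 and 1.84 ± 0.96 TPM, and Eef1e1, also in the complex, 1.04 ± 0.32 TPM (SD, n = 6). By catalytic fold, Eprs, which joins the class I glutamate and the class II proline enzyme, was counted in class I only. The 10 class I cytosolic genes so counted had a median of 2.03 ± 0.06 and the 10 class II genes 2.42 ± 0.12 (SD, n = 6). The SDs of these medians are over libraries and not over genes. With no length scaling the order turned, and the median gene was at 10.01 CPM in class I and 9.27 CPM in class II. Class II stayed higher with the longest coding transcript, at 5.95 against 5.21 TPM, and with span lengths, at 1.01 against 0.91 TPM. The 13 genes of the ATF4 list had a median of 2.22 ± 0.16 and the 7 other cytosolic genes 1.90 ± 0.21.

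Among the mitochondrial genes, Fars2, the phenylalanine enzyme, had the highest mean with exon lengths and the largest SD. With span lengths it was at 0.09 TPM and Yars2 led at 0.83 TPM, and relative to its mean Aars2 varied more, with a coefficient of variation of 154% against 91.2%. It was at 3.88, 3.47, 3.11, 4.98, 20.02 and 7.25 TPM in replicates 1 to 6, high in replicate 5 and the others at or below 7.25. Its mean was 7.12 ± 6.49 TPM, or 4.54 ± 1.67 TPM without replicate 5 (SD, n = 6 and 5). Fars2 spans 608869 bp at chr13:36117412-36726280 on the plus strand, and background was expected to give 48.5% of its counts, or 32.2% without replicate 5. With that subtracted, its level was 3.26 TPM.

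Rars2 (arginine) was steadier, from 2.33 to 3.36 TPM with a mean of 2.67 ± 0.41 TPM (SD, n = 6), and 17.5% of its counts were expected from background, or 8.80% without replicate 5. Nars2 (asparagine) reached 4.21 TPM in replicate 5 and 0.94 to 1.60 TPM elsewhere. Yars2 (tyrosine), the mitochondrial gene with the lowest expected background at 5.02%, or 2.25% without replicate 5, was at 1.58, 1.44, 1.36, 1.41, 0.30 and 0.56 TPM, low in replicates 5 and 6. Wars2 (tryptophan) had 1.10 ± 1.03 TPM (SD, n = 6) with replicate 5 highest at 3.13 TPM, and 0.69 TPM without it. Background was expected to give 48.8% of its counts, or 32.6% without replicate 5.

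The other 11 mitochondrial genes had means below 1 TPM. Among them, Ears2 (glutamate), Cars2 (cysteine), Hars2 (histidine), Sars2 (serine), Iars2 (isoleucine) and Tars2 (threonine) had means from 0.99 down to 0.62 TPM, and Hars2 was at 0.43 TPM without replicate 5. Aars2 (alanine) was at 1.96 TPM in replicate 5 and at most 0.34 TPM elsewhere. Mars2 (methionine) had 0.25 ± 0.08 TPM (SD, n = 6). Pars2 (proline) had 14 counts in all and 0 in replicates 1 and 2, and Vars2 (valine) had 21 counts and 0 in replicate 5. For Vars2, 57.1% of the exon bases lie inside another gene. Among others, such shares were 26.7% for Iars2, 22.8% for Fars2 and 15.1% for the cytosolic Aars. Whether such shared reads were counted is not stated, and the effect on these levels was not tested.

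For the same amino acid, the cytosolic gene was usually the higher. Of 17 pairs, 12 had the cytosolic gene higher in 6 of 6 libraries, and 15 did so without replicate 5. On the log2(TPM + 1) scale, the widest gap was Wars over Wars2, 3.43 ± 0.61, followed by Mars1 over Mars2, 2.19 ± 0.56, Sars over Sars2, 1.97 ± 0.34, and Nars over Nars2, 1.87 ± 0.81 (SD, n = 6). Vars lay above Vars2 by 1.72 ± 0.18, the least variable of the pairs. Yars, Hars, Iars, Tars and Cars, and Eprs against Pars2, were among the others above in all libraries, by 1.07 to 1.65. The order of the gaps depends on the pseudocount and the length. With a pseudocount of 0.1, Wars over Wars2 was 4.38, Mars1 over Mars2 3.79 and Vars over Vars2 3.54. With no length scaling Eprs over Pars2 was widest, at 3.85, against 3.32 for Wars over Wars2. By ratio of mean TPM, Mars1 over Mars2 led at 20.3, against 18.2 for Wars over Wars2.

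The exceptions were the alanine, glutamate, phenylalanine and arginine pairs. Aars over Aars2 was 0.75 ± 0.70 and Eprs over Ears2 0.58 ± 0.44 (SD, n = 6), each higher in 5 of 6 libraries and lower in replicate 5. Rars and Rars2 did not differ beyond their spread, at -0.05 ± 0.39, and Rars was higher in 3 of 6 libraries. Farsb minus Fars2 was 0.02 ± 0.72 and positive in 5 of 6 libraries, or 0.30 without replicate 5. Farsa lay below Fars2 in 6 of 6 libraries, with a difference of -1.70 ± 0.91 (SD, n = 6), and above it with span lengths, by 0.55.

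**Figure D3:**
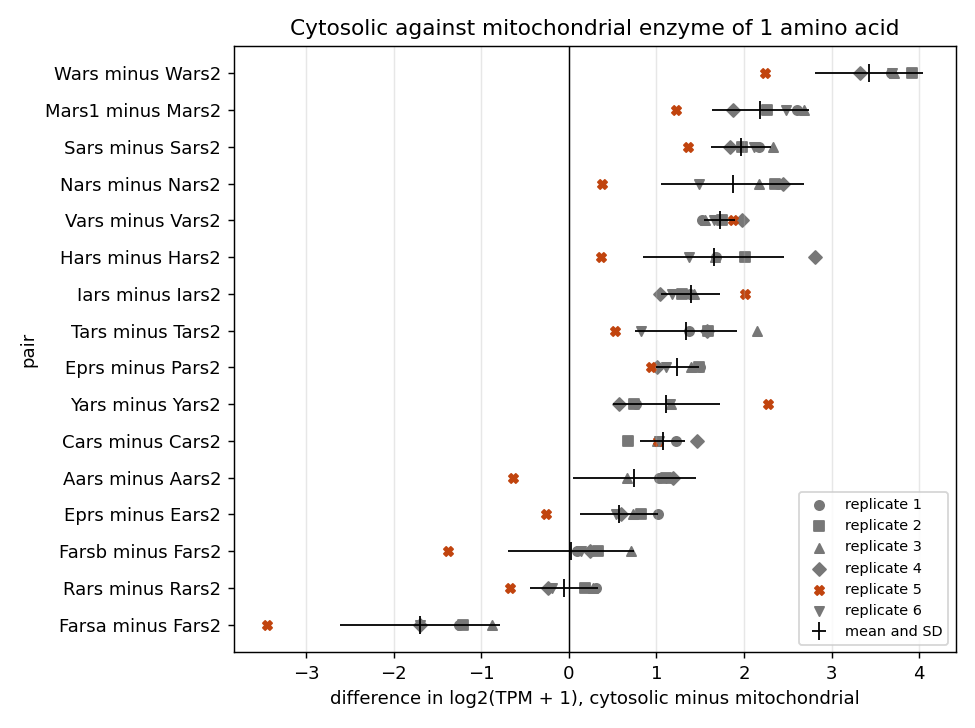
Within-library difference of log2(TPM + 1), cytosolic minus mitochondrial gene, for the pairs reported here that charge the same amino acid. Points are libraries, the orange crosses replicate 5, and bars the mean and SD over 6 libraries. Most pairs lie above 0 in every library, and replicate 5 pulls several of them down.

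Other genes of tRNA charging were mostly near or below 1 TPM. Gatc and Qrsl1, subunits of the amidotransferase that makes glutamine on the tRNA, had 3.98 ± 1.46 and 0.99 ± 1.16 TPM, and Mtfmt, which formylates the initiator methionine, 0.66 ± 0.75 TPM (SD, n = 6). Without replicate 5, Qrsl1 was at 0.54 and Mtfmt at 0.36 TPM. Gatb, Aarsd1 and Pstk had 0 counts, but all their exon bases lie inside other genes, and nothing on their expression can be read from this. Trnt1, which adds the CCA end to tRNAs of both compartments, had 1.00 ± 0.16 TPM and Sepsecs, which makes selenocysteine on its tRNA, 0.72 ± 0.25 TPM (SD, n = 6). Of the stress response, Atf4 had 16.6 ± 5.37 TPM and Asns 38.1 ± 9.20 TPM (SD, n = 6). By mean TPM, Asns lay above every synthetase gene and Atf4 above all but Wars. Atf4 exceeded Wars in replicates 2 and 3, and with span lengths, at 25.8 against 3.002 TPM. In replicate 5, Atf4 lay below Fars2 too, at 7.70 against 20.02 TPM.

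No synthetase gene passed the test between the sets of libraries. With edgeR's quasi-likelihood test and Benjamini-Hochberg adjustment over 8723 genes, 30 of the 36 members were tested, 20 cytosolic and 10 mitochondrial, and 0 had an adjusted p under 0.05, against 0.0115% of all genes called higher and 0% lower. At an unadjusted p under 0.05, 8 members were lower and 1 higher in set B, against 9.76% and 16.1% of all genes. DESeq2 called 1 member lower, Mars1 by -1.43 with an adjusted p of 0.044, and 0 higher, against 2.44% of 9567 genes called lower and 5.81% higher. With no filter on low counts, edgeR also called Mars1 lower, by -1.53 with an adjusted p of 0.022, and 0 members higher, against 0.682% of 29779 genes called lower and 2.65% higher. These p-values set the difference between the sets against the spread within them. Since the sets are no groups of the study and the libraries may share animals, they hold for these samples only.

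On CPM scaled by TMM, edgeR's library scaling, Mars1 was at 16.4, 11.2 and 15.9 in set A and at 6.34, 2.32 and 8.83 in set B. The sets did not overlap, and the difference was -1.31 with an SE of 0.43 on the log2 scale and an adjusted p of 0.106 (edgeR). Gars was at 27.5, 19.4 and 20.5 in set A and at 15.3, 7.13 and 13.4 in set B, a difference of -0.91 with an SE of 0.33 and an adjusted p of 0.122 (edgeR). On this scale, 11 of the 30 tested members had every library of set B below every one of set A, namely Mars1, Rars, Tars, Gars, Nars, Yars, Sars, Iars, Wars, Yars2 and Mars2, and 0 had the reverse, against 17.2% and 15.5% of all genes.

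Calls of members came up when single libraries were left out. Without replicate 5, edgeR called Mars1 lower, by -0.96 with an adjusted p of 0.023, and Yars lower, by -0.87 with an adjusted p of 0.028, and 0 members higher, against 4.07% of 9057 genes called lower and 4.04% higher. Without replicate 4, edgeR called Gars, Nars, Rars, Tars and Yars2 lower and Fars2 higher, against 5.72% of 9801 genes called lower and 16.9% higher. Fars2 was 0.97 higher in set B with an SE of 0.38 and an adjusted p of 0.144 in all libraries (edgeR), and 0.43 without replicate 5.

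The median difference was -0.52 for cytosolic genes, with 19 of 20 below 0, and -0.03 for mitochondrial genes, with 5 of 10 below 0, against -0.00 for all genes tested, all in the edgeR fit, and the direction turned with the scaling. The median log2 difference of cytosolic genes was -0.58 on TMM-scaled values, -0.39 on library totals and 0.45 on totals outside ribosomal RNA, Lars2, Gphn and satellite genes, where the median of all genes was -0.02, 0.16 and 1.01. A scaling shifts all genes of a library alike, so the distance from the all-gene median, -0.55 for cytosolic and 0.04 for mitochondrial genes, is the same in each by arithmetic. Of all 3471 tested genes with under 10% expected background, the median was -0.51 on TMM-scaled values and 83.0% lay below the all-gene median. The 18 cytosolic genes of that kind had a median of -0.58, close to that value, and 100% of them lay below the all-gene median. Of the ATF4 pathway, 5 of 7 genes were tested and 0 were called by edgeR with all libraries. Asns (-1.15, SE 0.24, adjusted p 0.087) and Atf4 (-1.12, SE 0.39, adjusted p 0.115) had every library of set B below set A on the TMM scale. Both were called lower by DESeq2, with adjusted p of 7.3e-04 for Asns and 0.046 for Atf4. By edgeR both were called lower without replicate 5, with adjusted p of 4.7e-04 and 0.015, and without replicate 4, with adjusted p of 0.021 and 0.017. Neither was called by edgeR without replicate 1, 2, 3 or 6, with adjusted p from 0.121 to 0.305. The other tested genes, Chac1 (-1.04), Eif2ak3 (-0.25) and Eif2ak4 (0.16), overlapped between the sets. The median of the 5 tested genes was -1.08 on TMM-scaled values and -0.05 on totals outside ribosomal RNA, Lars2, Gphn and satellite genes. The acinar marker sum was lower and the endocrine sum mostly higher in set B, and their part in these differences was not tested.

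**Figure D4:**
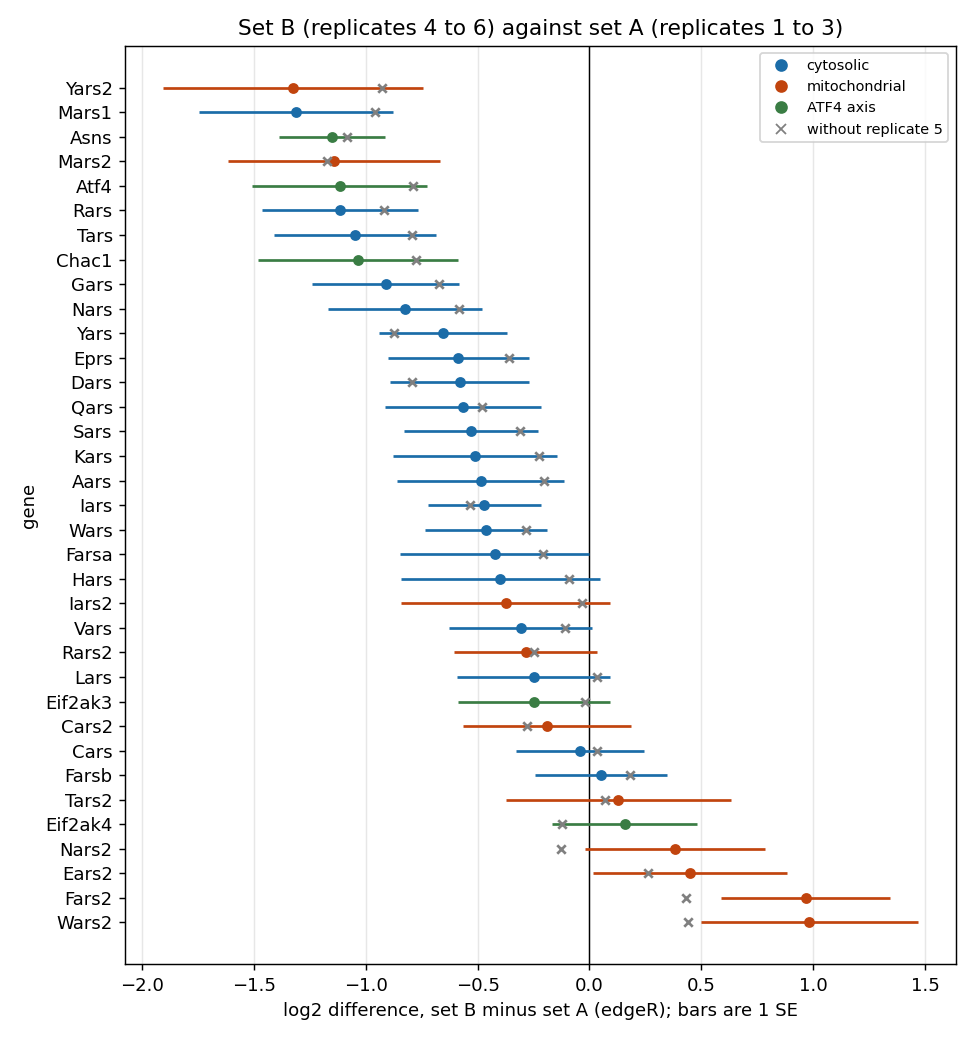
Difference between set B and set A for each tested synthetase gene and gene of the ATF4 pathway, as the edgeR log2 fold change with 1 SE, and without replicate 5 as grey crosses. On this TMM scale most cytosolic genes lie below 0, while their median is 0.45 on totals outside ribosomal RNA, Lars2, Gphn and satellite genes, and 0 genes shown pass an adjusted p of 0.05 in this edgeR fit of all libraries.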

How the data were processed

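RNA was measured in 6 libraries of 300 cells each. Per the labels, the library protocol was Smart-seq2 with changes, among them a preamplification of 12 PCR cycles. The submitters' processing notes name Trim Galore 0.6.4, FastQC, STAR 2.7.9a, SAMtools, featureCounts and build mm10. The authors deposited raw counts per gene symbol, and a Length column, another quantity, which equals the gene span for all 55253 symbols with 1 interval, so introns were counted. The annotation, strand setting and treatment of multiply aligned reads are not given in the sources used here, and the molecule label reads genomic DNA.

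Exon lengths came from GENCODE for 55141 symbols with 99.9967% of the counts. TPM was scaled over all genes, ribosomal RNA included, and levels used a pseudocount of 1. Background was counts per Mb over 1999 receptor genes spanning 14.9 Mb, times gene span. The sets were tested by edgeR 4.0.16, with TMM scaling and the filterByExpr filter, and by DESeq2 1.42.0 in R 4.3.3. Python 3.11.15, numpy 2.4.6, pandas 2.3.3 and matplotlib 3.10.9 were used. Every member could be named, except items that are not reported here, with the related tRNA and ATF4 genes. The members, gene lists and comparisons were chosen with earlier results of these data known. Alternatives covered length, pseudocount, scaling, filters, background and leaving out each library.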

Additional observations from a re-analysis of the deposited data

Results flagged for a closer look

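Of 56 quantities checked, 12 had 1 library set apart from the other 5, its gap to the nearest one exceeding 0.625 of the whole range, and that library was replicate 5 in 10 of them. Chance sets apart about 1 in 20 such groups. Values are log2(TPM + 1). Among single genes, Iars was at 2.46 in replicate 5 against 1.94 to 2.13 elsewhere, Aars2 at 1.56 against 0.09 to 0.42, Nars2 at 2.38 against 0.95 to 1.38, and Vars2 at 0 against 0.22 to 0.32. Vars was high in replicate 4, at 2.26 against 1.84 to 1.97, and Mars2 low in replicate 6, at 0.14 against 0.30 to 0.40.

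The other 6 are differences between genes for the same amino acid, all set apart in replicate 5. Aars minus Aars2 was -0.63 there against 0.67 to 1.19 elsewhere, Eprs minus Ears2 -0.26 against 0.54 to 1.02, and Wars minus Wars2 2.24 against 3.32 to 3.92. Farsa minus Fars2 was -3.45 against -1.70 to -0.88, and Farsb minus Fars2 -1.37 against 0.10 to 0.71. Yars minus Yars2 alone was larger in replicate 5, at 2.27 against 0.57 to 1.17. Replicate 5 had 323 background counts per Mb against 25.7 to 108 in the other libraries, and the part of that in these values was not tested.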

How the results depend on the processing

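The difference between the compartments, 1.34, stayed positive under every alternative run, but moved to 0.67 with span lengths, 1.73 with no length scaling, 2.11 with a pseudocount of 0.1 and 0.69 over members of 1 TPM or more, and lay between 1.27 and 1.45 when each library was left out. It was 1.57 with the longest coding transcript, an alternative added after seeing the data. The 12 pairs became 12 to 15 when each library was left out. The 11 members above background became 7 at 5 times background, 23 at 2 times and 11 to 30 when each library was left out. Farsa minus Fars2 turned to 0.55 with span lengths. Between the sets, edgeR's 1 call (1 higher, 0 lower) became 789 with DESeq2 (556 higher, 233 lower) and 993 with no filter on low counts (790 and 203). Leaving out each library gave 0 to 2217 calls, 0 to 1656 higher and 0 to 561 lower. The 0 members called became 1 with DESeq2, 1 with no filter and 0 to 6 when each library was left out. The causes were not tested. No paired analysis was possible because all libraries belong to 1 group and share no replicate numbers. A planned comparison with the amino acid make-up of the proteins was not run, since no protein sequences were used here. Depth limits the 5 to 8 members per library with under 10 counts.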
